A study of Mus musculus with 12 samples.

Results

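Cd4, Cd7, Cd209a, Clec10a and Mgl2 are surface molecule genes that are used to recognise type 2 conventional dendritic cells (cDC2) and related cells of the mouse. They were chosen by gene symbol, with earlier results of these data known, and all 5 of the 5 symbols were found among the 27179 genes counted. All 5 passed the filter on low counts and were among the 13415 genes tested. RNA sequencing had been done on 12 libraries of splenic dendritic cells, 3 in each of 4 groups. The groups were cDC2 of mice labelled zfp366-/- (KO), cDC2 of mice labelled zfp366+/+ (WT), type 1 conventional dendritic cells (cDC1) of the KO mice, and cDC1 of the WT mice. All mice were female and of strain C57/BL6, and the labels give no age. DC-SCRIPT, the product of Zfp366, is a nuclear zinc finger protein found in dendritic cells, and the labels name no cell type to which the deletion is limited. Every library came from a pool of mice, and each of the 6 pools gave 1 cDC1 and 1 cDC2 library. The p-values below rest on the spread between libraries of a group, estimated jointly over all 12 libraries. The main test held no term for the pool, so comparisons across subsets treated both libraries of a pool as independent.

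Conventional dendritic cells take up antigen and present it to T cells. The cDC1 subset is known for cross-presentation to CD8+ T cells, and the cDC2 subset, rich in C-type lectins, for presentation to CD4+ T cells. CD4 is the coreceptor for MHC class II on helper T cells and also lies on a large part of splenic cDC2. CD7 is an immunoglobulin superfamily receptor best known from T and NK cells. The other three are C-type lectins, receptors that bind sugars with the help of calcium. CD209a is a mouse relative of human DC-SIGN, a receptor for mannose and fucose. Clec10a encodes MGL1 (CD301a), and Mgl2 encodes MGL2 (CD301b). Both belong to the galactose-type lectins, of which MGL1 is known for Lewis X and MGL2 for galactose and N-acetylgalactosamine.

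In the GRCm38 annotation (positions from the deposited gene identifiers matched to RefSeq), Cd4 (Entrez 12504) lies at chr6:124864693-124888247 and Cd7 (Entrez 12516) at chr11:121036747-121039478. Cd209a (Entrez 170786) lies at chr8:3743395-3748984. Mgl2 (Entrez 216864) at chr11:70130125-70137542 and Clec10a (Entrez 17312) at chr11:70166623-70170836 are neighbours, 29081 bases apart. Counts were made over whole genes, so each value below covers the exons of a gene together.

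Clec10a and Mgl2 are close copies of each other, which bears on how their reads can be told apart. Over 912 aligned coding bases of GENCODE transcripts Clec10a-202 and Mgl2-201 they were 91.56% identical, and the longest identical stretch was 183 bases. A stretch of the coding sequence of both is given here, 5′ to 3′ and joined across an intron, with the bases that differ between the genes in capitals. It covers coding bases 622 to 741 of Clec10a (chr11:70170048-70170249, plus strand) and 670 to 789 of Mgl2 (chr11:70136563-70136759, plus strand), and 4 bases differ.
Clec10a: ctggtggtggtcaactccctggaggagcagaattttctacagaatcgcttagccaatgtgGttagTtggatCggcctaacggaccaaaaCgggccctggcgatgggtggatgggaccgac
Mgl2: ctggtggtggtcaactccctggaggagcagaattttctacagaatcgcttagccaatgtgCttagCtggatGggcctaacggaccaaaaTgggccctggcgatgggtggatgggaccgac
Of the windows of 75 bases along the Clec10a transcript, 10.2% were also found in the Mgl2 transcript, and 9.59% of the Mgl2 windows were found in Clec10a. For windows of 50 bases the shares were 16.7% and 15.7%. The read length and the handling of reads that match both genes are not given in the sources used here, so part of each gene's count is uncertain. That part need not be small for Mgl2 in cDC1 KO. There Clec10a had 306, 270 and 234 reads and Mgl2 66, 57 and 61. The size of that part was not measured.

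Promoter sequences, shown because the KO libraries lay above the WT libraries in cDC1 for both genes, were at hand in RefSeq (GRCm38.p6) for Cd209a and Mgl2, which are 2 of the 5 members. Each covers 250 bases before the start site used for that promoter and 50 after it, 5′ to 3′ on the gene's strand, with motif matches in capitals. Cd209a is shown at chr8:3748935-3749234, minus strand, and Mgl2 at chr11:70130107-70130406, plus strand. The start site of the Mgl2 window is not the start of the gene position given above, chr11:70130125. Most of that window, with its motif matches, therefore lies inside the gene as positioned.
Cd209a: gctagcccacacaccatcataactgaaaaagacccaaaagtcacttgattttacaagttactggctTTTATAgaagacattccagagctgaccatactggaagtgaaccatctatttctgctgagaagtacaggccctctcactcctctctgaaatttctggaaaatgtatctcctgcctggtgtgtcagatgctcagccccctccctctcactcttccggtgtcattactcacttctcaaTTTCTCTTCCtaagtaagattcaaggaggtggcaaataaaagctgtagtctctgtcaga
Mgl2: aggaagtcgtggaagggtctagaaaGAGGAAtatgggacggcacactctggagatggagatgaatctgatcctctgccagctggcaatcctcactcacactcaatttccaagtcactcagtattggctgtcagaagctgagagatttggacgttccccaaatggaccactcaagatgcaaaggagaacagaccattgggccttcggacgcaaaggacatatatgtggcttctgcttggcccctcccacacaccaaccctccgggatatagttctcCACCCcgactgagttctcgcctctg
Both strands were searched for 6 motifs. In Cd209a the ETS and IRF composite element (GGAA, any 2 bases, then GAAA) matched on the opposite strand at bases 242 to 251 of the window, and 2.72% of 32851 promoters of this length held it. The TATA motif TATAAA matched there on the opposite strand at bases 67 to 72, as in 13.6% of promoters. In Mgl2 the PU box GAGGAA matched at bases 26 to 31 and the KLF motif CACCC at bases 276 to 280, found in 28.3% and 57.5% of promoters. No matches overlapped. The interferon-type motif (GAAA, any 2 bases, then GAAA), present in 3.44% of promoters, and the RBPJ motif TGGGAA, present in 25.6%, had no match in either window. Binding was not measured here, so these matches describe the letters only.

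Total counts ran from 11330503 to 36761685 per library. The 12 cDC1 markers summed to 1031 to 1425 CPM in cDC2 KO and 925 to 1130 CPM in cDC2 WT, against 8552 to 9431 CPM in cDC1 KO and 11600 to 12360 CPM in cDC1 WT, so the subset labels match their markers. CPM are read counts scaled by library total to a fixed sum, with TMM factors (trimmed mean of M values) applied to the totals. Zfp366 averaged 66.9 ± 12.9 CPM in cDC2 KO and 57.4 ± 4.92 CPM in cDC2 WT, and 47.5 ± 1.85 CPM in cDC1 KO and 103 ± 44.0 CPM in cDC1 WT (SD, n = 3 each). The labels do not say which part of the gene was deleted, so a count over the whole gene does not check the genotype.

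The cDC2 libraries labelled KO replicate 1 and WT replicate 1 stood apart from the others of their label, and this touches every genotype value in cDC2. Of the 1038 genes called between KO and WT in cDC2 replicates 2 and 3, 145 (13.97%) differed in the same direction between the libraries numbered 1. In cDC1 the same count was 2757 of 6429 (42.88%). Pearson's r of log2 CPM, centred over the cDC2 libraries, was -0.436 for KO 1 with KO 2 and -0.361 with KO 3. Between KO 2 and KO 3 it was 0.644. For WT 1 it was -0.463 with WT 2 and -0.526 with WT 3, but WT 2 and WT 3 did not run together either (-0.102). The same r, centred over the cDC1 libraries, set WT library 1 apart, at -0.16 with WT 2 and -0.267 with WT 3. KO library 1 lay nearer its label, at 0.46 with KO 2 and 0.451 with KO 3. The log2 fold changes of the 5 members in the cDC1 pair numbered 1 were all positive (1.87 to 4.47). Genotype values of the members in cDC2 are therefore given over all libraries, over replicates 2 and 3, and without those 2 cDC2 libraries. No library was moved to another group.

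**Figure D1:**
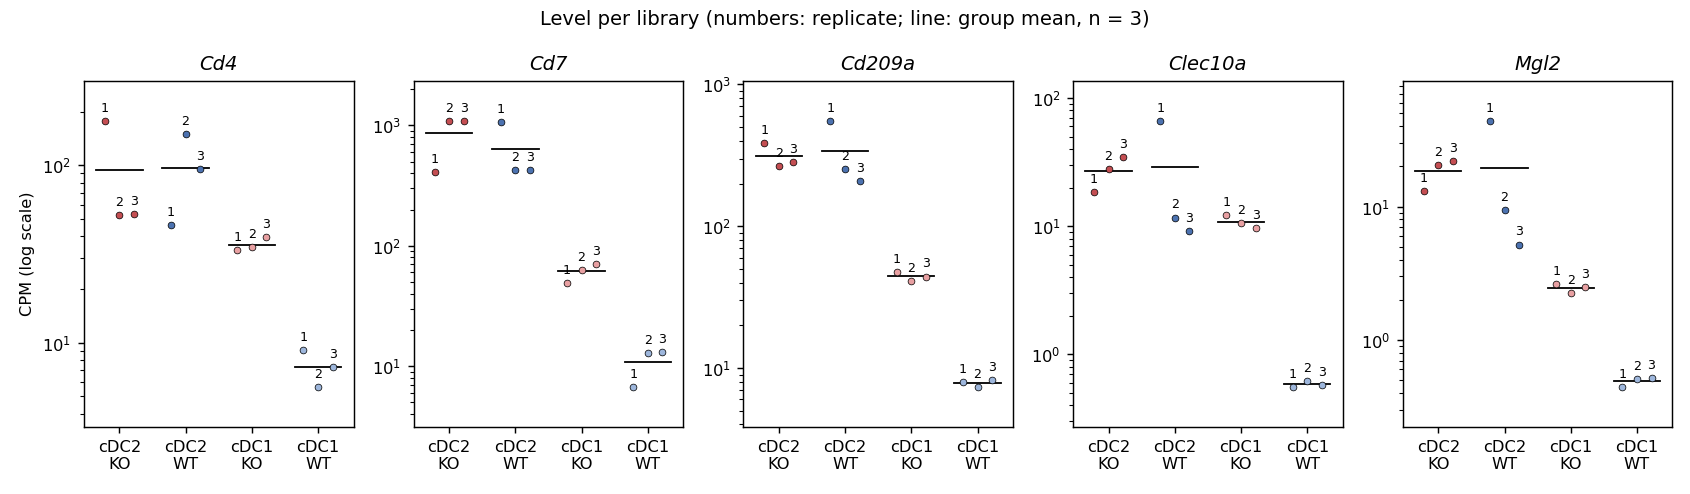
Levels of the 5 genes in each of the 12 libraries, in CPM on log axes, with the replicate number at each point and the group mean as a line (n = 3). In all 5 panels the cDC1 KO points lie above the cDC1 WT points, while the cDC2 KO and cDC2 WT points overlap, and for Cd7 the cDC2 KO library numbered 1 (407 CPM) lies far below its companions (1087 and 1086 CPM).

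In cDC1, the KO libraries had more of all 5 transcripts than the WT libraries, 4.86- to 5.69-fold for 4 of them and 18.6-fold for Clec10a, and the rise passed the test for 4 genes. In cDC2 none of the 5 passed it over all libraries. Mean levels in cDC1 KO were below both cDC2 means for every gene, which for Clec10a rests on cDC2 WT library 1: without it the cDC2 WT mean was 10.4 CPM, and the cDC1 KO mean 10.8 CPM. KO against WT was tested with edgeR's quasi-likelihood test, Benjamini-Hochberg adjusted over all genes, with calls at an adjusted p below 0.05. Of all genes tested, 5.32% were called in cDC1 in either direction and 3.6% as higher. In bulk libraries, a larger share of cells with a transcript and more of it per cell cannot be told apart.

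Cd4 had 33.3, 34.6 and 39.2 CPM in cDC1 KO libraries 1, 2 and 3, against 9.07, 5.61 and 7.34 CPM in cDC1 WT libraries. Every KO library lay above every WT library. The log2 fold change was 2.28 (SE 0.51, adjusted p = 0.0211), and it was 2.49 (adjusted p = 7.59e-06) in replicates 2 and 3, where 24.9% of all genes were called as higher. Leaving out any of cDC1 KO libraries 1, 2 and 3 ended the call (adjusted p = 0.053, 0.0597 and 0.0706), as did leaving out cDC1 WT library 2 or library 3 (0.111 and 0.0873). The alternatives tried gave 7.59e-06 to 0.111.

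Cd7 had 49.3, 63.4 and 71.0 CPM in cDC1 KO, against 6.65, 12.9 and 13.1 CPM in cDC1 WT. The groups did not overlap, and library 1 was the lowest of either group. The log2 fold change was 2.49 (SE 0.47, adjusted p = 0.00743), or 2.35 (adjusted p = 7.93e-08) in replicates 2 and 3.

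Cd209a varied little within the cDC1 groups. It had 47.9, 41.1 and 44.2 CPM in cDC1 KO, against 7.92, 7.30 and 8.21 CPM in cDC1 WT. The spread within either group was small beside the gap between them, and the log2 fold change was 2.51 (SE 0.34, adjusted p = 8e-04), or 2.44 (adjusted p = 3.09e-07) in replicates 2 and 3. Cd7 and Cd209a kept their calls under all 21 alternatives tried.

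Clec10a had 12.2, 10.7 and 9.58 CPM in cDC1 KO, against 0.550, 0.612 and 0.578 CPM in cDC1 WT. The WT values rest on 10, 12 and 10 reads, so that Clec10a was close to the limit of detection in WT cDC1. The log2 fold change was 4.21 (SE 0.71, adjusted p = 0.00384), or 4.05 (adjusted p = 1.09e-06) in replicates 2 and 3. The limma-voom test gave an adjusted p of 0.0767 in a range of 4.5e-09 to 0.0767.

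Mgl2 had 2.63, 2.25 and 2.50 CPM in cDC1 KO, against 0.440, 0.510 and 0.520 CPM in cDC1 WT, where it was counted at 8, 10 and 9 reads. The 3 KO libraries were all above the 3 WT libraries, but over all 12 libraries the test was not passed (log2 fold change 2.31, SE 0.70, adjusted p = 0.0827). It was passed in replicates 2 and 3 (2.17, adjusted p = 7.66e-04), and without the cDC2 libraries numbered 1 (2.32, adjusted p = 0.00104), where 5.73% of genes were called as higher. Leaving out cDC2 WT library 1 or 3 alone, which enter through the shared spread, also gave a call (adjusted p = 0.00174 and 0.0296). The range over alternatives was 7.66e-04 to 0.382. Non-overlap of the groups, seen for all 5 genes as higher in KO, was found as higher in KO for 15.5% of all genes tested.

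**Figure D2:**
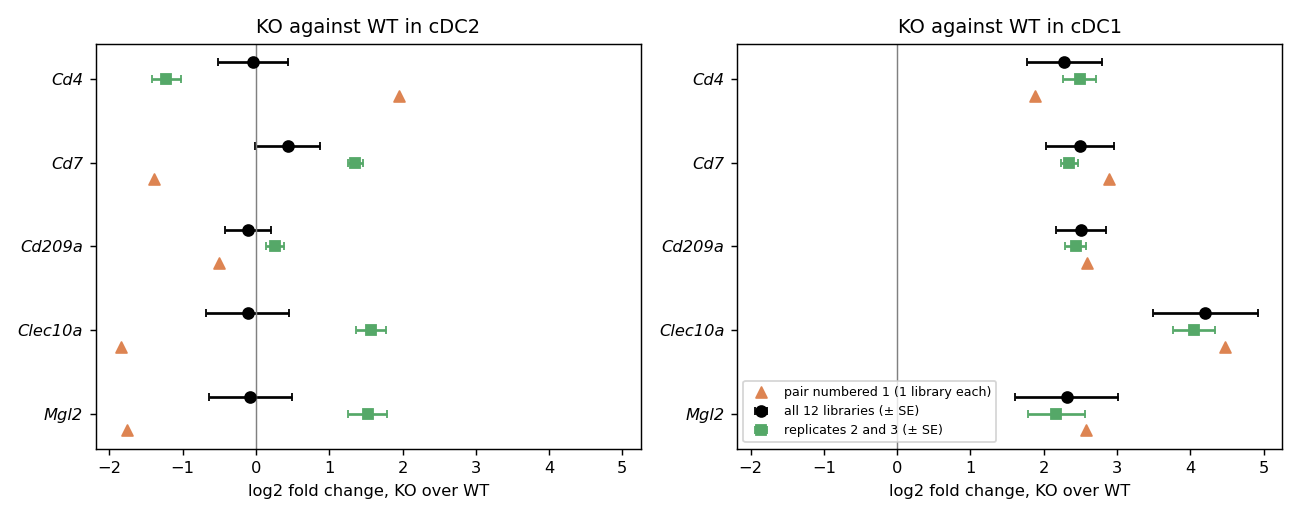
Log2 fold change of KO over WT for the 5 genes in cDC2 (left) and cDC1 (right), with black circles for the fit over all 12 libraries and green squares for replicates 2 and 3 (bars, SE), and orange triangles for the pair numbered 1 (1 library each, no error). In cDC1 the 3 values of each gene lie close together above 0, whereas in cDC2 the pair numbered 1 and replicates 2 and 3 lie on opposite sides of 0 for all 5 genes.

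In cDC2, the levels of the 5 genes differed more between libraries of the same label than between the group means. Over all 12 libraries no gene of the 13415 tested was called by edgeR between cDC2 KO and cDC2 WT (0.0%), 271 (2.02%) had an unadjusted p below 0.05, and DESeq2 and limma-voom also called 0. In replicates 2 and 3 alone, 7.72% of the genes were called. The KO and WT libraries overlapped for all 5 genes, while 5.88% of genes tested had groups that did not.

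Cd4 had 178, 52.6 and 53.1 CPM in cDC2 KO, against 45.9, 151 and 94.9 CPM in cDC2 WT. KO library 1 was the highest of the 6 and WT library 1 the lowest, the reverse of replicates 2 and 3. The log2 fold change was -0.04 (SE 0.48, adjusted p = 1), and within replicates 2 and 3 it was -1.23 with adjusted p = 0.00265 (SE 0.20), or -1.22 with adjusted p = 0.0899 without the cDC2 libraries numbered 1 alone.

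Cd7 had 407, 1087 and 1086 CPM in cDC2 KO, against 1066, 425 and 423 CPM in cDC2 WT. The 6 libraries fell at 2 levels, a high level in KO 2, KO 3 and WT 1, and a low level in KO 1, WT 2 and WT 3. Across all libraries the log2 fold change was 0.43 (SE 0.44, adjusted p = 1), in replicates 2 and 3 it was 1.36 (SE 0.10, adjusted p = 1.69e-05), and in the pair numbered 1 it was -1.39. Without the cDC2 libraries numbered 1 alone it was 1.36 with adjusted p = 0.0929.

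Cd209a had 389, 267 and 284 CPM in cDC2 KO, against 552, 251.3 and 208 CPM in cDC2 WT. Both libraries numbered 1 were above the other four. The log2 fold change was -0.11 (SE 0.31, adjusted p = 1), or 0.26 (adjusted p = 0.228) in replicates 2 and 3 and 0.26 (adjusted p = 0.766) without the cDC2 libraries numbered 1 alone. Of the 5 members, Cd209a alone had no call in cDC2 in any of these 3 fits.

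Clec10a had 18.4, 28.0 and 34.5 CPM in cDC2 KO, against 66.2, 11.7 and 9.20 CPM in cDC2 WT. Mgl2 followed the same order, with 12.97, 20.6 and 22.1 CPM in cDC2 KO, against 43.8, 9.34 and 5.19 CPM in cDC2 WT. For both lectins WT library 1 was the highest of the 6, and WT 2 and WT 3 were the lowest. Their log2 fold changes were -0.11 (SE 0.57) and -0.08 (SE 0.57) over all libraries, with adjusted p = 1 for both. In replicates 2 and 3 Clec10a was higher in KO by 1.57 (SE 0.20, adjusted p = 6.75e-04) and Mgl2 by 1.52 (SE 0.27, adjusted p = 0.00555). Without the cDC2 libraries numbered 1, the values were 1.58 (adjusted p = 0.0217) and 1.54 (adjusted p = 0.0497), with 0.898% of genes called.

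The library labelled cDC2 WT 1, in which both galactose lectins and Cd209a were highest, was the highest of the 6 cDC2 libraries in 6 of the 12 cDC1 markers. Summed over the 12, it was the lowest of the 6, at 925 CPM. It had 91.4 CPM of Irf8, a transcription factor of cDC1, against 28.2 and 18.4 CPM in WT 2 and WT 3, and 31.7 to 46.4 CPM in cDC2 KO. Clec9a, a cDC1 receptor for dead cells, was at 27.9 CPM there, against 3.44 and 1.09 CPM in the other WT libraries. In WT cDC1 the galactose lectins themselves were below 1 CPM. The part of either library numbered 1 in these results was not tested beyond the fits without them.

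The effect of the genotype was next compared between the subsets, by testing the log2 fold change in cDC1 minus that in cDC2. It was positive for all 5 genes and passed for Cd209a (2.61, SE 0.45, adjusted p = 0.0108) and Clec10a (4.32, SE 0.91, adjusted p = 0.0347), where 1.42% of all genes were called. Cd209a kept this call under all 21 alternatives, with an adjusted p of at most 0.0488. Clec10a lost it under 11 of 21, over a range of 8.1e-05 to 0.295, among them limma-voom (adjusted p = 0.295), both replicate blocks (adjusted p = 0.0881 by number and 0.105 by mouse pool), without any of the 3 cDC1 KO or the 3 cDC2 KO libraries (0.0735 to 0.0924), and without cDC1 WT 2 or 3 (0.103 and 0.0981). The other values were 2.32 for Cd4 (SE 0.69, adjusted p = 0.17), 2.06 for Cd7 (SE 0.63, adjusted p = 0.188) and 2.39 for Mgl2 (SE 0.90, adjusted p = 0.345). Without cDC2 KO library 1 the value for Cd4 was 3.16 and passed (adjusted p = 0.0148). Within replicates 2 and 3, where 20.3% of genes had a positive call, Cd4 had 3.72 (adjusted p = 7.56e-06), Cd7 0.99 (4.82e-04), Cd209a 2.18 (1.21e-05) and Clec10a 2.48 (3.35e-04), while Mgl2 had 0.65 (0.322).

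The comparison of the subsets addressed how far these genes mark cDC2. In WT mice all 5 were higher in cDC2 than in cDC1, by a ratio of means of 13.2 for Cd4, 39.7 for Mgl2, 43.2 for Cd209a, 50 for Clec10a and 58.7 for Cd7. The log2 fold changes ran from 3.73 (SE 0.54, adjusted p = 3.02e-04) for Cd4 to 5.87 (SE 0.54, adjusted p = 9.09e-06) for Cd7. All 5 kept their calls under all 22 alternatives, and 10.9% of all genes were called as higher in WT cDC2. Replicates 2 and 3 alone, where 24.3% of genes were called as higher, gave 5.02 for Cd7 (5.87 over all), 4.88 for Cd209a (5.43 over all), 4.24 for Cd4 (3.73 over all), 4.12 for Clec10a (5.64 over all) and 3.82 for Mgl2 (5.31 over all). The cDC2 WT means of Clec10a and Mgl2 rest largely on library 1.

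In KO mice the estimated gap between the subsets was smaller for each of the 5 genes. The change of this gap is the difference of effects tested above, which over all libraries passed only for Cd209a and Clec10a. Cd7 was higher in cDC2 by 3.81 (SE 0.49, adjusted p = 2e-04), Mgl2 by 2.91 (SE 0.62, adjusted p = 0.00674) and Cd209a by 2.82 (SE 0.34, adjusted p = 1.1e-04), and 8.43% of all genes were called as higher. Cd4 (1.41, SE 0.49, adjusted p = 0.0679) and Clec10a (1.32, SE 0.58, adjusted p = 0.142) did not pass, although for each of the 5 genes every cDC2 KO library was above every cDC1 KO library, as for 22.7% of genes tested. Without the cDC2 WT library numbered 1, which enters only through the shared spread, Cd4 (adjusted p = 0.0416) and Clec10a (0.0033) passed. Leaving out both cDC2 libraries numbered 1 gave 0.56 (adjusted p = 0.115) for Cd4 and 1.53 (6.35e-04) for Clec10a, with 13.7% of genes called as higher.

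**Figure D3:**
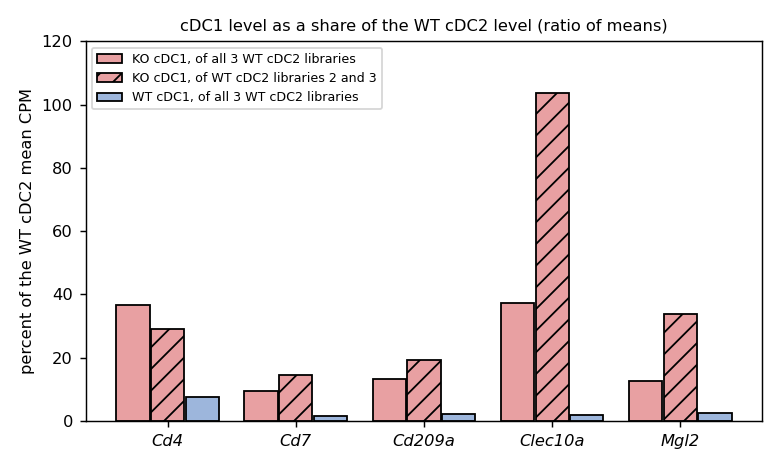
Mean CPM of the 5 genes in cDC1 KO as a percentage of the mean of all 3 cDC2 WT libraries (plain bars) and of cDC2 WT libraries 2 and 3 (hatched bars), with cDC1 WT as a percentage of all 3 beside them (3 libraries for either cDC1 group, axis from 0, no error drawn). Leaving out cDC2 WT library 1 moves the cDC1 KO bar from 37.2% to 103.6% for Clec10a and from 12.6% to 33.8% for Mgl2, while the cDC1 WT bars lie between 1.71% and 7.55%.

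Set against the cDC2 WT mean, cDC1 KO reached 36.7% for Cd4, 37.2% for Clec10a, 13.2% for Cd209a, 12.6% for Mgl2 and 9.6% for Cd7. In cDC1 WT the shares were 7.55%, 2.0%, 2.32%, 2.52% and 1.71% in the same order. These shares depend on cDC2 WT library 1. Without it they were 29.1% for Cd4, 103.6% for Clec10a, 19.3% for Cd209a, 33.8% for Mgl2 and 14.4% for Cd7 in cDC1 KO, so the order of the genes changed too, an alternative chosen after seeing the data. For Clec10a the cDC1 KO libraries (9.58 to 12.2 CPM) overlapped cDC2 WT libraries 2 and 3 (11.7 and 9.20 CPM), and for the other 4 genes every cDC1 KO library was below every cDC2 WT library. Among other genes of cDC2, the share in cDC1 KO was 95.1% for Itgam, which encodes CD11b, and 15.4% for Sirpa, a receptor of cDC2 that binds CD47 (82.2% and 13.7% without that library).

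Per kilobase of the deposited gene length, which allows levels to be compared between genes, Cd7 stood first in all 4 groups. It averaged 825 CPM per kilobase in cDC2 KO, 612 in cDC2 WT, 58.8 in cDC1 KO and 10.4 in cDC1 WT. Cd209a came second, with means of 211, 227, 29.9 and 5.26 in the same groups. Cd4 (30.5, 31.4, 11.5 and 2.37) came next, before Clec10a (18.0, 19.3, 7.20 and 0.387) and Mgl2 (11.96, 12.6, 1.59 and 0.316). The order of the 5 means was the same in the 4 groups. The library ranges of Cd4 and Clec10a, and of Clec10a and Mgl2, overlapped in both cDC2 groups, while in both cDC1 groups no neighbours in this order overlapped. In cDC1 WT the order of Clec10a and Mgl2 rests on 10, 12 and 10 reads against 8, 10 and 9, too few to part them.

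The neighbouring lectin genes Clec10a and Mgl2 kept similar proportions in 3 of the 4 groups. The per-length ratio of Clec10a to Mgl2 was 1.46, 1.41 and 1.61 in cDC2 KO and 1.56, 1.29 and 1.83 in cDC2 WT. It was 4.79, 4.89 and 3.96 in cDC1 KO, against 1.29, 1.24 and 1.15 in cDC1 WT. Every cDC1 KO library thus had a ratio above that of all other libraries, while the cDC1 WT ratios rest on 18, 22 and 19 reads of both genes together. Between cDC1 KO and cDC1 WT the mean log2 ratio differed by 1.89 (2-sided exact permutation test, p = 0.1, the smallest that 3 against 3 can give). Between cDC2 KO and cDC2 WT it differed by -0.05 (p = 0.9 in the same exact test). Reads that match both genes could enter either count, and their part in these ratios was not tested.

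**Figure D4:**
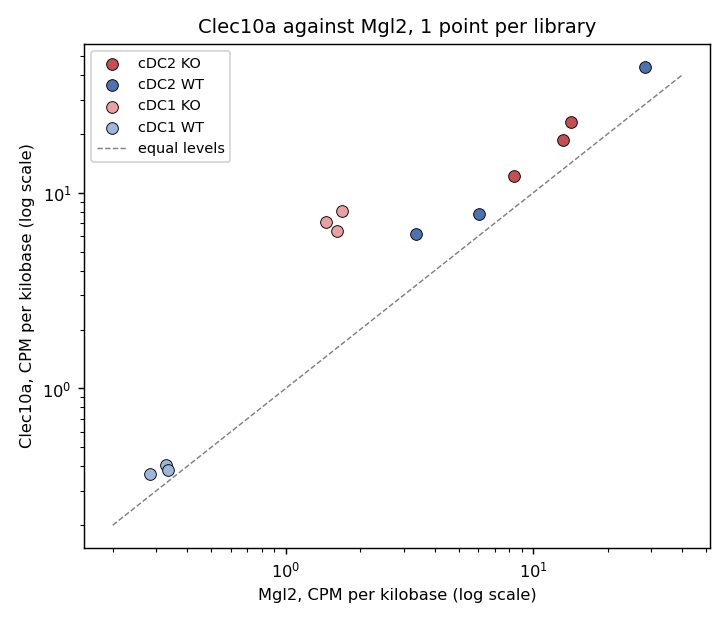
Clec10a against Mgl2 in the 12 libraries, in CPM per kilobase on log axes, with 1 point per library and a dashed line at equal levels. The cDC2 KO, cDC2 WT and cDC1 WT points run just above the line, at ratios of 1.15 to 1.83, and the 3 cDC1 KO points lie apart at 3.96 to 4.89.

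Across libraries the 5 genes did not vary as a unit in cDC2. Over the 6 cDC2 libraries, Pearson's r of log2(CPM + 1) was 0.988 between Clec10a and Mgl2 and -0.937 between Cd4 and Cd7. Cd4 also ran against Clec10a (-0.749) and Mgl2 (-0.691), and Cd7 ran with them (0.855 and 0.836). Over the 6 cDC1 libraries every pair had an r of 0.927 or more, where the 2 genotypes form separate clusters. These values describe libraries that share mouse pools, and no p was computed for them.

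The genes whose pattern over the 12 libraries was most like that of a member were found by the same r among 8631 genes. Cd4 was most like Ifitm3 (0.978), Ptger3 (0.976) and Ddx58 (0.975), and Cd7 most like Npl (0.997), Rem1 (0.995) and Ube2e2 (0.988). For Cd209a they were Spns3 (0.997), Fgr (0.994) and Slc15a4 (0.991). Clec10a ran with Clec4a3 (0.985), another C-type lectin, and with Dmac2 (0.984) and Cyp4f18 (0.981), and Mgl2 with Cd244a (0.977), Bambi (0.975) and Mkrn1 (0.974). The difference between the subsets sets much of these values.

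Among 24 other genes of the cDC2 signature, 14 rose in cDC1 KO, 10 did not pass and 0 fell. Not all of the 24 marked cDC2 here. Between the WT subsets 21 were higher in cDC2, 1 was lower and 2 did not pass, where 10.9% of all genes were called as higher. The list had a median log2 fold change of 1.91, against -0.001 for all genes tested. It was chosen with earlier results of these data known, so it is not an independent check. Of all genes tested, 3.6% were called as higher there. Within replicates 2 and 3, 22 rose and 1 fell, in a fit that called 24.9% of all genes as higher and 22.9% as lower. Itgam had 125 ± 4.20 CPM in cDC1 KO and 4.47 ± 1.75 CPM in cDC1 WT, and Irf4, a transcription factor of cDC2, 87.0 ± 12.9 CPM in cDC1 KO and 13.8 ± 4.28 CPM in cDC1 WT (SD, n = 3 each). In cDC2 none of the 24 passed over all libraries, and 3 rose and 3 fell in replicates 2 and 3, where 7.72% of genes were called.

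Of 6 other genes of the CD209 family, 4 were tested and none passed between KO and WT in either subset, also in replicates 2 and 3. Cd209b, a receptor of marginal zone macrophages, averaged 6.73 CPM in cDC2 KO and 7.69 CPM in cDC2 WT, and 0.093 CPM in cDC1 KO and 0.221 CPM in cDC1 WT. It was thus higher in cDC2 in both genotypes, like Cd209a (6.09 in KO, adjusted p = 2.67e-06, and 5.11 in WT, adjusted p = 3.18e-06). Cd209c was higher in WT cDC2 than in WT cDC1 (4.79, SE 1.36, adjusted p = 0.0238), but did not pass in replicates 2 and 3 (adjusted p = 0.0899). It averaged 0.227 CPM in cDC1 KO and 0.019 CPM in cDC1 WT, where 1 read was counted, and did not pass there (adjusted p = 0.242). Cd209f and Cd209g had at most 0.168 CPM in any library.

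Asgr2, which encodes a subunit of the asialoglycoprotein receptor of hepatocytes, belongs with Clec10a and Mgl2 among the galactose-type lectins and lies 23938 bases from Mgl2 (chr11:70092644-70106187). It averaged 3.29 ± 0.604 CPM in cDC1 KO and 0.090 ± 0.028 CPM in cDC1 WT (SD, n = 3 each), where the 3 libraries held 5 reads in all. The log2 fold change was 5.11 (SE 0.93, adjusted p = 0.00626), or 5.08 (adjusted p = 0.00221) in replicates 2 and 3. Unlike the 5 members, it was lower in cDC2 KO (0.392 CPM) than in cDC1 KO, by -3.03 (SE 0.77, adjusted p = 0.0178). Asgr1, its partner subunit, and Clec4f, a Kupffer cell lectin, had no reads in any library, and Colec12 was below the filter.

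Of 9 other lectins of dendritic cells and macrophages, among them receptors for mannose or beta-glucan, 1 rose and 1 fell in cDC1 KO. Clec7a, which encodes the beta-glucan receptor dectin-1, averaged 306 ± 22.4 CPM in cDC1 KO and 35.8 ± 29.5 CPM in cDC1 WT (3.10, SE 0.47, adjusted p = 0.00188, or 3.95 with adjusted p = 1.46e-08 in replicates 2 and 3). Cd207, which encodes langerin, averaged 1.72 ± 0.659 CPM in cDC1 KO and 130 ± 77.2 CPM in cDC1 WT (-6.24, SE 0.70, adjusted p = 2.09e-04, or -6.66 with adjusted p = 2.05e-08 in replicates 2 and 3). The other 7 did not pass over all libraries. Within replicates 2 and 3 of cDC1, a fit that called 24.9% of all genes as higher and 22.9% as lower, 2 of the 9 rose and 4 fell. Those that rose were Clec7a and Clec1b (2.65 for Clec1b, adjusted p = 0.00233). Among those that fell was Mrc1, the mannose receptor (-0.66, adjusted p = 0.0284). It was at 5.36 CPM in cDC1 KO and 9.13 CPM in cDC1 WT over all 3 libraries.

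The sugars that galactose-type lectins bind are made by glycosyltransferases, of which 7 of 8 listed were tested. In cDC1 KO 1 of them rose, Fut7, a fucosyltransferase of Lewis-type sugars, to 2.85 ± 0.346 CPM, against 0.436 ± 0.051 CPM in cDC1 WT (2.69, SE 0.42, adjusted p = 0.00234, or 2.80 with adjusted p = 1.25e-04 in replicates 2 and 3). In cDC2 it averaged 4.64 CPM in KO and 10.2 CPM in WT and did not pass over all libraries, but in replicates 2 and 3 it was lower in KO by -1.84 (adjusted p = 0.00285). The difference of the effects between subsets passed (3.83, SE 0.56, adjusted p = 0.00363).

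Of the ligands, partners and regulators of CD4, 12 of 13 were tested and none passed in cDC1 or cDC2, whereas in replicates 2 and 3 of cDC1 5 rose and 3 fell, in a fit that called 24.9% of all genes as higher and 22.9% as lower. Lag3, which encodes a CD4-like receptor for MHC class II, lies 16112 bases from Cd4. It had 25.4 ± 1.09 CPM in cDC1 KO and 8.80 ± 1.47 CPM in cDC1 WT, with a log2 fold change of 1.53 (SE 0.43, adjusted p = 0.0596), or 1.66 (adjusted p = 1.01e-04) in replicates 2 and 3. The MHC class II genes H2-Aa and H2-Ab1 did not pass in cDC1 over all libraries (adjusted p = 0.503 and 0.258), and both were lower in cDC1 KO in replicates 2 and 3 (-0.71, adjusted p = 5.2e-04, and -0.89, adjusted p = 8.2e-05). Of 3 CD7 partners tested, none passed over all libraries. Sectm1a, a mouse relative of the human CD7 ligand gene SECTM1 and the neighbour of Cd7 on chromosome 11, had 2.39, 0.11 and 0 CPM in cDC2 KO and 0.11, 4.65 and 12.8 CPM in cDC2 WT, so that its libraries numbered 1 also ran against the others. Within replicates 2 and 3 it was lower in cDC2 KO by -6.95 (adjusted p = 8.16e-04), on few reads.

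The nearest tested gene to Cd4 rose more than Cd4 itself. Gpr162, which encodes an orphan receptor, lies 498 bases away (chr6:124858444-124864195) and averaged 40.8 CPM in cDC1 KO and 1.31 CPM in cDC1 WT (4.96, SE 0.49, adjusted p = 1.08e-04). In cDC2 it averaged 22.2 CPM in KO and 20.7 CPM in WT. The sources used here do not state whether counting used the strand, so reads at the edge of such close genes are uncertain. Tested genes within 500000 bases of each member were also counted. Those called as higher in cDC1 KO were 4 of 39 at Cd4, 0 of 31 at Cd7 and 1 of 22 at Cd209a. They were 3 of 44 at Clec10a and 4 of 40 at Mgl2, against 3.6% of all genes tested. The windows of Clec10a and Mgl2 overlap. Clec10a itself is among the 4 at Mgl2, and Asgr2 is counted in both windows. The other nearest neighbours, Csnk1d, Clec4g, Cd209e and Slc16a13, did not pass between KO and WT in either subset.

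Cd4 and Cd7 are also T cell genes, so markers of other cells were measured beside them. The 14 T cell markers summed to 70.2 to 136 CPM in cDC2 KO, 66.5 to 76.0 CPM in cDC2 WT, 13.7 to 21.6 CPM in cDC1 KO and 11.4 to 18.9 CPM in cDC1 WT. Most of this was Tcf7 and Cd5. Of the 14, 8 were below 1 CPM in every library, and none was at 0 in all of them. The T cell receptor gene Trac reached at most 0.881 CPM. Of the CD3 complex, Cd3e reached at most 0.405 CPM and Cd3g at most 0.694 CPM, but Cd3d had 0.411 to 1.54 CPM in cDC2 KO, 0.790 to 4.83 CPM in cDC2 WT, 0.040 to 0.082 CPM in cDC1 KO and 0.275 to 0.867 CPM in cDC1 WT. Of the T cell list, 1 of 7 tested genes rose in cDC1 KO, namely Cd6, to 1.53 CPM, against 0.249 CPM in cDC1 WT (adjusted p = 0.0196).

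Monocyte and macrophage markers moved with the members in part. The 10 monocyte markers summed to 624 to 779 CPM in cDC1 KO and 163 to 253 CPM in cDC1 WT, with 2 of 9 tested genes higher, Ccr2 (525 CPM in cDC1 KO and 69.4 CPM in cDC1 WT) and Ms4a4c. Ccr2 also stands in the cDC2 signature list, but it averaged only 58.6 CPM in cDC2 KO and 75.2 CPM in cDC2 WT. Ms4a4c had 60.6 CPM in cDC1 KO and was higher in cDC2, at 214 CPM in KO and 276 CPM in WT. The 13 macrophage markers summed to 180 to 255 CPM in cDC1 KO and 140 to 258 CPM in cDC1 WT, with 2 higher (Cd163 and Timd4) and 1 lower (Vcam1). Cd163 averaged 25.8 CPM in cDC1 KO, above cDC2 KO (2.50 CPM) and cDC2 WT (5.42 CPM). Timd4 averaged 10.8 CPM in cDC1 KO, also above cDC2 KO (0.962 CPM) and cDC2 WT (1.1 CPM). Summed NK cell markers were 29.9 to 41.9 CPM in cDC1 KO and 11.02 to 12.5 CPM in cDC1 WT, where Klrd1 rose, a gene that was higher still in cDC2 (175 CPM in KO and 221 CPM in WT). Of the 12 cDC1 markers 1, Itgae, fell in cDC1 KO over all libraries. Within replicates 2 and 3 of cDC1, 8 fell and 2 rose, with Xcr1 at -1.32 (adjusted p = 3.43e-04). That fit, which also gave the counts in replicates 2 and 3 below, called 24.9% of all genes as higher and 22.9% as lower. B cell, neutrophil, and erythroid and platelet markers had no call in cDC1 over all libraries, and of the plasmacytoid dendritic cell markers 2 of 10 fell. In replicates 2 and 3, 4 of 5 tested erythroid and platelet markers were lower in cDC1 KO, neutrophil markers had 1 rise and 2 falls, plasmacytoid dendritic cell markers 4 and 2, macrophage markers 4 and 5, monocyte markers 2 and 1, T cell markers 2 and 1, NK cell markers 3 and 0, and B cell markers none. In cDC2, no marker of these lists passed over all libraries. The part of such cells in the rise of the 5 genes was not tested.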

How the data were processed

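Per the submitters' processing notes, reads were aligned to GRCm38 (mm10) and counted with featureCounts, with no version given, and per the labels' protocols polyA RNA from collagenase-digested spleens went through a TruSeq preparation. The authors deposited raw read counts per gene under Entrez identifiers, without normalization, and the deposited gene length is in bases. Symbols and positions came from RefSeq's annotation of the same build. The 5 members and the 16 gene lists were chosen with earlier results of these data known.

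edgeR 4.0.16 (R 4.3.3) fitted 4 group means to all 12 libraries, with TMM scaling, filterByExpr and robust quasi-likelihood dispersions, after a test on simulated data. It gave 5 comparisons: KO against WT in each subset, cDC2 against cDC1 in each genotype, and the difference of the KO effects. The SE of a log2 fold change was derived from its F statistic. The median SE was 0.33 in either KO comparison, and low read numbers add counting error. Alternatives used DESeq2 1.42.0, limma 3.58.1 (voom), other scaling, filters and blocks, and left out libraries.

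Named genes were the members, the 3 genes most like each (average log2 CPM of at least 3), up to 4 genes per list by smallest p in cDC1 or all of a list of 9 or fewer, and the nearest tested gene on either side. Single genes such as Sirpa and Clec9a were added afterwards as markers. Per the labels, a mouse pool gave a library of either subset. Residual correlations within a pool were 0.143 to 0.259 in KO and -0.205 to -0.068 in WT. Between genotypes, same-numbered libraries had -0.067 to 0.106, so numbers were not taken as pairs.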

Additional observations from a re-analysis of the deposited data

Results flagged for a closer look

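For 2 of the 5 genes, the effect of the KO differed between the subsets in the test of the difference itself, which called 1.42% of all genes. Clec10a differed by 4.32 on the log2 scale (cDC1 minus cDC2, SE 0.91, adjusted p = 0.0347). Every cDC1 KO library was above every cDC1 WT library, as for 15.5% of genes tested, and the groups overlapped in cDC2. That call was lost under 11 of 21 alternatives, among them limma-voom (adjusted p = 0.295), the replicate block by number (0.0881) and by mouse pool (0.105), and 8 fits with a single library left out (0.0735 to 0.103). Cd209a differed by 2.61 (SE 0.45, adjusted p = 0.0108), with the same pattern, and kept its call under all 21. In replicates 2 and 3 alone the differences were 2.48 for Clec10a and 2.18 for Cd209a.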

How the results depend on the processing

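Over 535 alternative values for the 5 genes in 5 comparisons, 475 kept direction and side of the threshold, 17 lost a call, 24 gained 1 and 19 changed sign. The cause of these changes was not tested. All changes of sign were in KO against WT in cDC2. With single libraries left out, Cd4 ran from -0.88 to 0.42, Cd209a from -0.36 to 0.45, Clec10a from -0.53 to 1.37 and Mgl2 from -0.52 to 1.34. Cd4 turned positive without cDC2 KO replicate 2 or 3 or cDC2 WT replicate 2, and the lectins without cDC2 WT replicate 1 (Clec10a and Mgl2 also without cDC2 KO replicate 1). With limma-voom Cd209a was 0.0285, Clec10a 0.29 and Mgl2 0.28. With the replicate block by number, Clec10a was 0.27 and Mgl2 0.26. In replicates 2 and 3 Cd209a was 0.26, Clec10a 1.57 and Mgl2 1.52, and without both cDC2 libraries numbered 1, left out after seeing the data, 0.26, 1.58 and 1.54.

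Genes called between KO and WT in cDC1 (714 over all libraries) were 1318 with DESeq2, 6438 in replicates 2 and 3, 1206 without both cDC2 libraries numbered 1, and 318 to 3052 with single libraries left out. In cDC2 (0) they were 1039 in replicates 2 and 3 and 122 without both libraries, and 0 with any single library left out; of the members 4 and 2 were then called. For cDC2 against cDC1 in KO (2264) the counts were 4172 with only its own libraries, 6620 in replicates 2 and 3, 3716 without both, and 1209 to 3382 without single libraries; members called went to 5 in replicates 2 and 3, with 3 to 5 without single libraries. In WT (2846) they were 1537 and 6391, and 2049 to 3266. For the difference of effects (190) the counts were 480 with DESeq2, 116 with the replicate block by mouse pool, 303 with a gene length offset, 5157, 336 and 110 to 501. Its members called (2) were 4 with DESeq2, 1 with limma-voom, 1 with either replicate block, 4 in replicates 2 and 3, and 1 to 2 without single libraries. In cDC1, members called between KO and WT (4) were 3 to 5 without single libraries. The block changed no other call of a member.

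Depth limits Clec10a and Mgl2 in WT cDC1, where no library held more than 12 reads of either.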
